A study of Mus musculus with 2 samples.

Results

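Ccl3, Ccl4, Ccl5, Ccl6 and Ccl9 are CC chemokines and Ccr1 is a chemokine receptor, and these 6 genes were followed through the cell types of mouse breast tumours by single-cell RNA sequencing. They were found by their gene symbols, each with 1 row among the 55357 genes of each matrix. The tumours were grown from 4T1 cells, a mouse mammary carcinoma line used as a model of triple-negative breast cancer, in BALB/c mice. Mice of the AptCD4-LNT group received this agent in doses of 5, 4 and then 3 times 1000000 cells, 3 days apart, and mice of the Untreated group received PBS in its place. Tissue of both groups was taken on day 9, and each library was made from 3 mixed tumours, so that there was 1 library per group, differences between mice cannot be seen and no test was possible. The submitters gave the cell type as tumour cell, but both libraries also held blood-derived and stromal cells.

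As background, chemokines are small secreted proteins that draw leukocytes along a gradient through receptors on their surface. Ccl3, Ccl4 and Ccl5 are inflammatory chemokines, of which Ccl3 and Ccl5 act through Ccr1. Ccl6 and Ccl9 are chemokines of rodent myeloid cells that act through Ccr1, a receptor of neutrophils, monocytes and macrophages. Ccl5 is in addition a product of activated T cells and NK cells. 4T1 tumours are known for the large numbers of neutrophils and related myeloid cells that they draw.

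In the matrices the genes stood as Ccl3 (ENSMUSG00000000982), Ccl4 (ENSMUSG00000018930), Ccl5 (ENSMUSG00000035042), Ccl6 (ENSMUSG00000018927), Ccl9 (ENSMUSG00000019122) and Ccr1 (ENSMUSG00000025804). The RefSeq annotation of GRCm38.p6, an earlier build than the one of the counts, places the 5 ligands on chromosome 11 and Ccr1 on chromosome 9. That annotation has a long Ccl4 transcript model that overlaps Ccl3 on the opposite strand, and whether the counting used strand is not given in the sources used here, so reads of the overlap cannot be told apart.

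Ccl6 and Ccl9 lie near each other on the minus strand of chromosome 11, and both were high in macrophage-like cells while Ccl6 alone of the pair was high in neutrophil-like cells. Their promoters are therefore shown 5′ to 3′ on the minus strand, from 250 bases before to 50 bases after the transcription start in RefSeq, build GRCm38.p6, at chr11:83593038-83593337 for Ccl6 and chr11:83578587-83578886 for Ccl9. Capitals mark the longest run of bases that both promoters share, 13 bases from window base 196 of Ccl6 and window base 237 of Ccl9.
Ccl6: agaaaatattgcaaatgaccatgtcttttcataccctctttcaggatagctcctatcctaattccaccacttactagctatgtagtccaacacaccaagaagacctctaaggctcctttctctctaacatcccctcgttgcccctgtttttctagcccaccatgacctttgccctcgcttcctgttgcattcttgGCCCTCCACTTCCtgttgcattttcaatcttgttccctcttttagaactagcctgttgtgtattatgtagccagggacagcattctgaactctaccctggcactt
Ccl9: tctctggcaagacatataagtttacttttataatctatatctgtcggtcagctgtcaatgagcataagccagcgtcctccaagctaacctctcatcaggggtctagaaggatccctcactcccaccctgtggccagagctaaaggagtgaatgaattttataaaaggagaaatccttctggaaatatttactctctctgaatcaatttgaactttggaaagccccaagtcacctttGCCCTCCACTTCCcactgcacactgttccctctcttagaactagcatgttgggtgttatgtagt
Both strands of the 4 members' promoters in the table (Ccl3, Ccl6, Ccl9 and Ccr1) were searched for 4 short motifs. The ETS core AGGAAG was found at 2 places in the Ccl6 promoter, 73 and 47 bases before the start site, and the second overlaps the shared run; 35.4% of all 32851 promoters of the table hold it. The Ccl9 promoter had no ETS core but held an AP-1 motif TGANTCA 53 bases before the start, as did 7.81% of all promoters, and a kappaB-type motif, GGG followed by any 5 bases and CC, on the opposite strand, as did 50.8% of all promoters. Ccr1 held 1 kappaB-type motif, Ccl3 held none of the 4, and the C/EBP-type motif TTGCNNAA was in none of the 4 promoters, against 10.8% of all. Such matches describe the letters of these windows and do not show binding.

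Sequencing gave 8931 barcodes and 98968100 UMIs, that is counted RNA molecules, for AptCD4-LNT, and 20040 barcodes and 131295224 UMIs for Untreated. After filtering, 8627 AptCD4-LNT cells with a median of 8573 UMIs and 18411 Untreated cells with a median of 4496 UMIs remained. Of the barcodes, 42 occurred in both libraries. The cells fell into 23 clusters, built without the 6 genes, that were named from fixed marker genes. At least 50 cells per library were found for 7 classes, namely neutrophil-like, macrophage-like, T-like, epithelial-like, fibroblast-like, endothelial-like and pericyte-like cells, while the share of unnamed cells was 20.2% in AptCD4-LNT and 26.8% in Untreated. Levels are given as CPM, that is a gene's UMIs in a class or cluster for every 1000000 UMIs counted there, and ratios as log2 of AptCD4-LNT over Untreated with 95% intervals. These intervals cover counting error only and not the spread between tumours. A gene is called higher or lower where the ratio passed 1.5-fold, and fewer cells of a type and less RNA per cell cannot be told apart in a whole-library sum. Levels across clusters are descriptions, since the clusters were formed from genes that vary with the 6.

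Over all cells, Ccl6 stood at 109.5 CPM in the AptCD4-LNT library and 450.4 CPM in the Untreated library, the widest gap of the 6, with a log2 ratio of -2.04. Ccl3 stood at 67.7 and 204 CPM in the AptCD4-LNT and Untreated libraries (log2 ratio -1.59), Ccl4 at 165 and 300.2 CPM (-0.87), and Ccl5 at 25.8 and 46.7 CPM (-0.86). Ccl9 at 50.9 and 66.6 CPM (-0.39) and Ccr1 at 51.0 and 50.2 CPM (0.02) did not pass 1.5-fold. Each cluster was then given the same weight in both libraries, namely the mean of its UMI shares in AptCD4-LNT and Untreated. With this common mix of clusters the log2 ratios were -0.82 for Ccl3, -0.62 for Ccl4, -0.21 for Ccl5, -1.54 for Ccl6, -0.32 for Ccl9 and 0.11 for Ccr1. Every ligand's ratio was thus nearer to 0 once the makeup of the libraries was held equal, and the call of Ccl5 was lost.

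**Figure D1:**
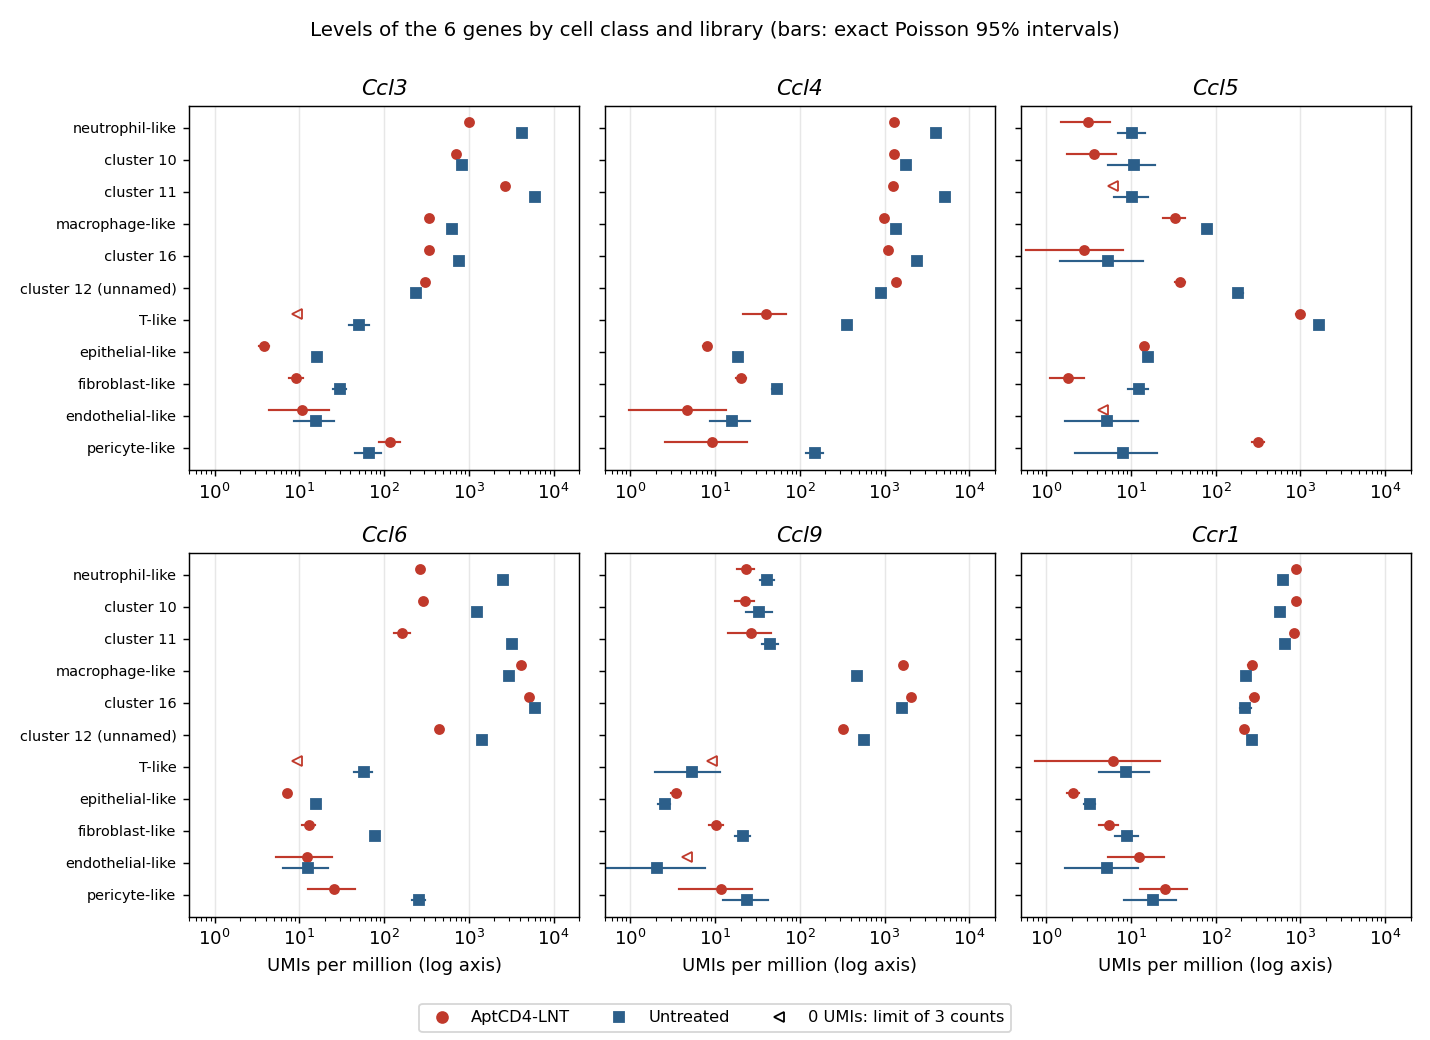
Level of each of the 6 genes, in CPM on a log axis, by class or cluster in the AptCD4-LNT and Untreated libraries, with error bars for exact 95% counting intervals; open triangles mark 0 UMIs at the limit set by 3 counts. Ccl3, Ccl4, Ccl6 and Ccl9 were high in myeloid clusters, Ccl5 in lymphoid cells, and Ccr1 in both neutrophil-like clusters.

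The cells that held the transcripts differed between the libraries for all 6 genes. Of Ccl3 UMIs, 20.5% of those in the AptCD4-LNT library and 50.9% of those in the Untreated library lay in cluster 11, a neutrophil-like cluster led by Ccl3, Hcar2 and Cxcl3, which made up 4.89% and 11.5% of the cells. Cluster 10, the other neutrophil-like cluster, led by S100a8 and Retnlg, held 29.9% of the AptCD4-LNT and 3.65% of the Untreated Ccl3 UMIs. Cluster 12, a myeloid cluster that was left unnamed, held 50.7% of the Ccl4 UMIs of the AptCD4-LNT library, against 3.70% in the Untreated library, where macrophage-like cells held 52.2% of Ccl4. Macrophage-like cells were the largest holders of Ccl6 and Ccl9, with 56.0% of AptCD4-LNT and 75.4% of Untreated Ccl6 UMIs, and 48.3% and 81.4% of Ccl9 UMIs. Cluster 12 held a further 24.8% and 3.88% of Ccl6 UMIs and 38.0% and 10.4% of Ccl9 UMIs. Ccr1 lay mostly in cluster 10 in the AptCD4-LNT library, at 50.1% of its UMIs, against 10.3% in the Untreated library, where macrophage-like cells held 52.2%. For Ccl5, the epithelial-like clusters with unnamed clusters 9 and 14 held 42.4% of the AptCD4-LNT and 27.2% of the Untreated UMIs, and were 44.7% and 53.8% of the cells. T-like and NK-like cells held 28.0% and 36.1% of the Ccl5 UMIs with 1.28% and 2.62% of the cells, and macrophage-like cells held 1.88% and 19.6%.

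**Figure D2:**
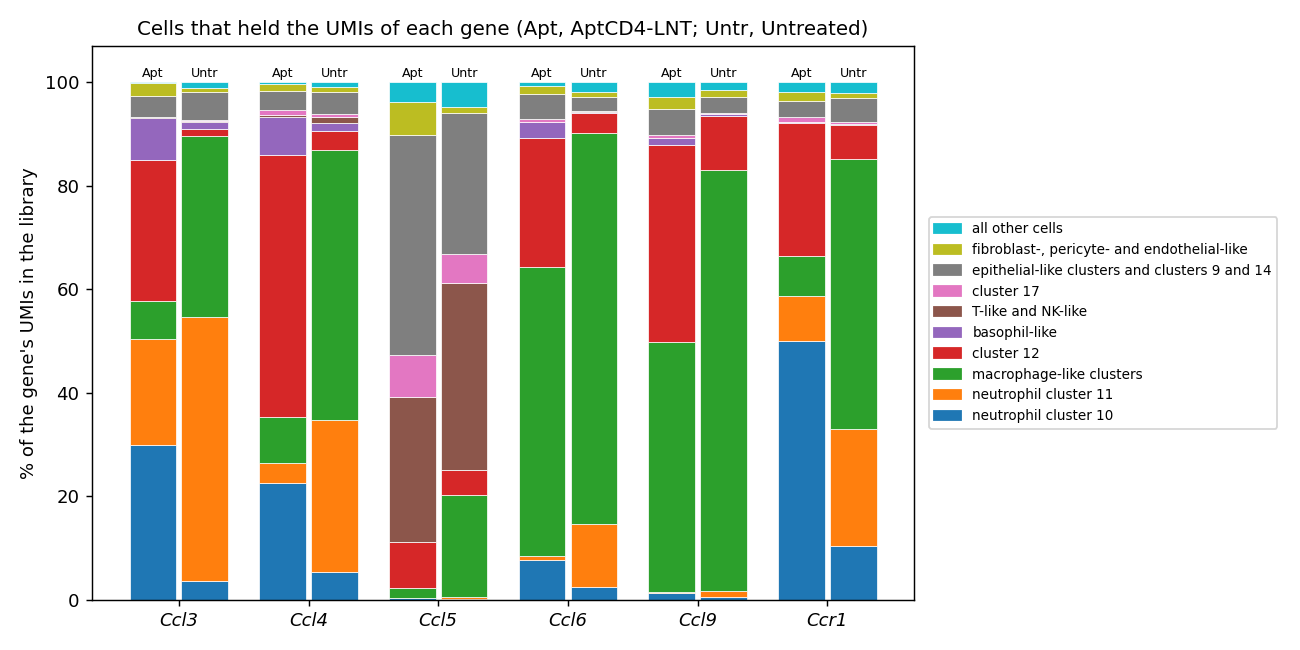
Share of each gene's UMIs, in percent of the library's total for that gene, by the cells that held them, as stacked bars with the AptCD4-LNT library left of the Untreated library. Cluster 12 took 50.7% of AptCD4-LNT Ccl4 UMIs, and macrophage-like cells took 52.2% of Untreated Ccl4 UMIs.

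The neutrophil-like class had 2129 AptCD4-LNT cells, 24.7% of the library, with a median of 1351 UMIs, and 2990 Untreated cells, 16.2%, with a median of 810.5 UMIs. In these cells AptCD4-LNT was lower for 5 of the 6 genes and higher for none, where 8.56% of all genes tested in the class were lower and 25.1% were higher. Ccl6 had 870 UMIs (269 CPM) in AptCD4-LNT neutrophil-like cells and 7526 UMIs (2530 CPM) in Untreated ones, a 9.40-fold lower level with a log2 ratio of -3.23 (-3.34 to -3.13). Ccl3 had 3241 UMIs (1002 CPM) in AptCD4-LNT and 12700 UMIs (4269 CPM) in Untreated neutrophil-like cells, 4.26-fold lower. Ccl4 had 4140 UMIs (1281 CPM) and 11896 UMIs (3999 CPM) in AptCD4-LNT and Untreated cells, 3.12-fold lower. The shares of cells with a UMI were also lower, at 20.9% for AptCD4-LNT and 50.9% for Untreated for Ccl6, 28.2% and 51.1% for Ccl3, and 18.7% and 34.4% for Ccl4, although AptCD4-LNT cells had the higher depth. Thinned to 500 UMIs per cell, the shares were 9.84% and 42.1% for Ccl6, 20.2% and 45.5% for Ccl3, and 13.6% and 29.8% for Ccl4 in AptCD4-LNT and Untreated cells. In epithelial-like cells, which should lack these genes and whose median depth was 17794 and 7755 UMIs, the unthinned shares were 10.7% and 11.5% for Ccl6, 3.90% and 7.13% for Ccl3, and 8.72% and 9.46% for Ccl4.

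Ccr1 went the other way among neutrophils without reaching the 1.5-fold threshold in the class, with 2847 UMIs (881 CPM) in AptCD4-LNT cells and 1883 UMIs (633 CPM) in Untreated cells and a log2 ratio of 0.48 (0.39 to 0.56). It had a UMI in 67.5% of AptCD4-LNT and 43.1% of Untreated neutrophil-like cells, or 35.95% and 27.5% at 500 UMIs. Ccl5, at 3.09 and 10.4 CPM, and Ccl9, at 23.2 and 41.0 CPM in AptCD4-LNT and Untreated cells, were sparse, and Ccl5 rested on 10 and 31 UMIs. Ccl9 had a UMI in 3.15% and 2.54% of neutrophil-like cells, against 5.35% and 2.29% of the deeper epithelial-like cells. Thinned to 500 UMIs per cell, the shares were 1.25% and 1.63% in neutrophil-like and 0.203% and 0.144% in epithelial-like cells. The epithelial-like level was 3.45 and 2.54 CPM. The part of free RNA in the Ccl9 level of neutrophil-like cells was not tested.

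Much of the ligands' RNA lay in few of the neutrophils. The tenth of neutrophil-like cells with the most UMIs of a gene held 93.7% of AptCD4-LNT and 75.8% of Untreated Ccl4 UMIs, 76.7% and 56.2% of Ccl3 UMIs, and 73.3% and 55.6% of Ccl6 UMIs, and 30.9% and 41.4% of Ccr1 UMIs. Such shares also depend on a gene's mean level, which was not allowed for. Ccl3 and Ccl4 were detected together in 11.7% of AptCD4-LNT and 26.3% of Untreated neutrophil-like cells. Ccl3 and Ccl6 were detected together in 4.84% of the AptCD4-LNT and 31.6% of the Untreated neutrophil-like cells.

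The makeup of the class differed, since cluster 10 held 80.2% of AptCD4-LNT neutrophil-like cells (78.4% to 81.9%) and 29.2% of Untreated ones (27.6% to 30.9%), and cluster 11 held the rest. In cluster 11, Ccl6 was 19.5-fold lower, with 81 UMIs (164 CPM) in 422 AptCD4-LNT cells and 6256 UMIs (3203 CPM) in 2117 Untreated cells. Ccl4 was 4.08-fold lower there, at 1264 CPM in AptCD4-LNT and 5161 CPM in Untreated cells, and Ccl3 was 2.27-fold lower, at 2673 and 6067 CPM. In cluster 11, 13.2% of all tested genes were lower and 27.8% higher. Ccl6 had a UMI in 12.3% of AptCD4-LNT and 56.8% of Untreated cluster 11 cells, and Ccl3 in 49.5% and 63.1%. Ccl5 had 0 UMIs in AptCD4-LNT and 20 UMIs in Untreated cells of that cluster, and Ccl9 stood at 26.4 and 45.1 CPM.

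In cluster 10 Ccl6 was again past the threshold, with 789 UMIs (288 CPM) in 1707 AptCD4-LNT cells and 1270 UMIs (1243 CPM) in 873 Untreated cells, 4.32-fold lower. Ccl3, at 702 CPM in AptCD4-LNT and 831 CPM in Untreated cells (log2 ratio -0.24), and Ccl4, at 1283 and 1777 CPM (-0.47), did not pass it there. Ccr1 was 1.54-fold higher in cluster 10, at 886 CPM in AptCD4-LNT and 577 CPM in Untreated cells. Its log2 ratio there was 0.62 (0.49 to 0.75), so the lower bound fell short of 1.5-fold. The ratio is not corrected for the median log2 ratio of cluster 10, 0.21 over genes with at least 100 UMIs. In cluster 11 Ccr1 was not past the threshold, at 848 and 663 CPM. In cluster 10, 6.82% of all tested genes were lower and 25% higher. Ccl3 was higher in cluster 11 than in cluster 10 in both libraries, with log2 ratios of 1.93 in AptCD4-LNT and 2.87 in Untreated cells. Ccl4 and Ccl6 were higher in cluster 11 only in the Untreated library, with log2 ratios of cluster 11 over cluster 10 of -0.02 and 1.54 for Ccl4 and -0.81 and 1.37 for Ccl6 in AptCD4-LNT and Untreated cells. The difference between those ratios was not tested.

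Both clusters were also brought to a common mix, each weighted by the mean of its shares of the class's UMIs in AptCD4-LNT and Untreated. The log2 ratios of neutrophil-like cells were then -0.98 for Ccl3, -1.30 for Ccl4, -3.10 for Ccl6 and 0.51 for Ccr1. As counted they were -2.09, -1.64, -3.23 and 0.48. The Ccl6 gap was thus nearly as large within the clusters as over the class, and that of Ccl3 was more than 1.5-fold smaller. Among markers of other cells, the 8 macrophage genes summed to 397 CPM in AptCD4-LNT and 492 CPM in Untreated cluster 10 cells, and to 607 and 569 CPM in cluster 11, and the 7 fibroblast genes to 583 and 225 CPM in cluster 10. The 8 neutrophil markers themselves summed to 125902 CPM in AptCD4-LNT and 169575 CPM in Untreated cluster 10 cells, and to 61216 and 92860 CPM in cluster 11. The part of these differences in the results was not tested.

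**Figure D3:**
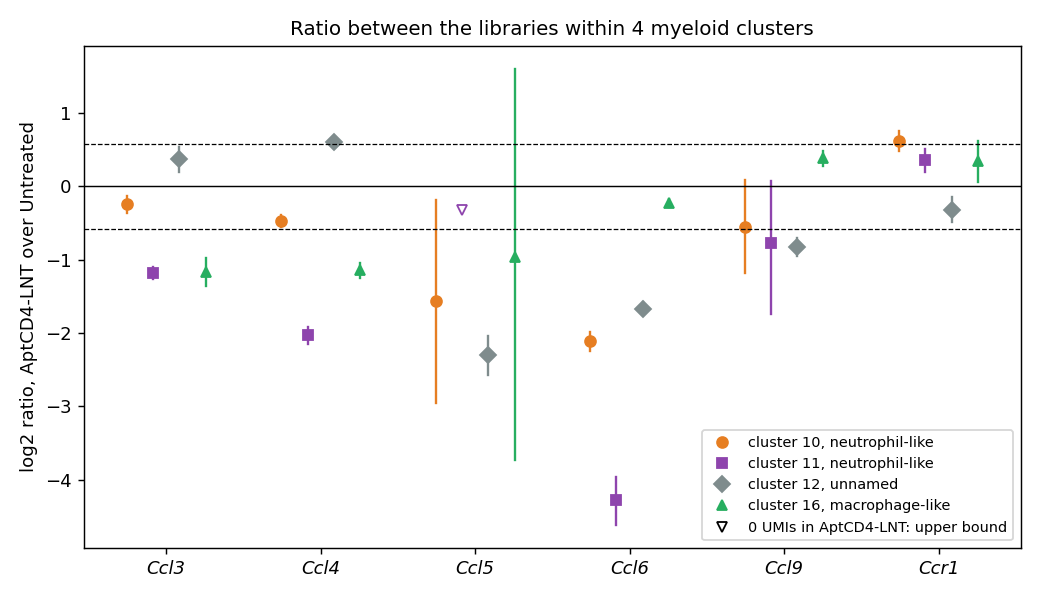
Log2 ratio of AptCD4-LNT over Untreated for the 6 genes in neutrophil-like clusters 10 and 11, cluster 12 and macrophage-like cluster 16, with exact 95% counting intervals; dashed lines mark 1.5-fold. Ccl6 was below the lower line in clusters 10, 11 and 12 and between the lines in cluster 16.

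Macrophage-like cells comprised clusters 16, 19 and 20, and different clusters held most of the class in the AptCD4-LNT and the Untreated library. Cluster 16, led by Ccl8, Mrc1, Cd163 and Folr2, held 88.0% of the 498 AptCD4-LNT cells and 8.79% of the 3050 Untreated cells, while clusters 19 and 20 held 31.3% and 59.97% of the Untreated cells. Over the class, Ccl9 was 3.52-fold higher, at 1670 CPM in AptCD4-LNT and 475 CPM in Untreated cells, Ccl3 was lower at 342 and 628 CPM (log2 ratio -0.87), and Ccl5 was lower at 32.9 and 80.4 CPM. That is 1 gene higher and 2 lower of 6, where 29.3% of all tested genes were higher and 20.6% lower, and 1 AptCD4-LNT cell held 28 of the 46 Ccl5 UMIs. Ccl4 (990 CPM in AptCD4-LNT, 1371 CPM in Untreated cells), Ccl6 (4162 and 2975 CPM) and Ccr1 (267 and 230 CPM) were not called. With a common mix of the 3 clusters in both libraries, weighted as above, the Ccl9 log2 ratio was 0.16 and that of Ccl3 -1.18, so the values are given by cluster.

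Within cluster 16, with 438 AptCD4-LNT and 268 Untreated cells, both Ccl3 and Ccl4 were lower, and 9.44% of all tested genes were lower and 23.3% higher. Ccl3 had 371 UMIs (343 CPM) in AptCD4-LNT and 571 UMIs (769 CPM) in Untreated cells, a log2 ratio of -1.16 (-1.36 to -0.97). Ccl4 had 1195 UMIs (1106 CPM) in AptCD4-LNT and 1815 UMIs (2445 CPM) in Untreated cells, a log2 ratio of -1.14 (-1.25 to -1.04). The receptor and its ligands Ccl6 and Ccl9 were not called there, with Ccl6 at 5186 CPM in AptCD4-LNT and 6062 CPM in Untreated cells, Ccl9 at 2076 and 1588 CPM, and Ccr1 at 285 and 225 CPM. Cluster 16 had the highest Ccl6 and Ccl9 levels among the clusters with at least 50 cells in both libraries. The 8 macrophage markers summed to 28984 CPM in AptCD4-LNT and 48155 CPM in Untreated cluster 16 cells.

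Cluster 12, with 925 AptCD4-LNT and 608 Untreated cells, scored highest for macrophage markers, but monocyte gene Ccr2 was among its leading genes with Ms4a4c and Ms4a7, so it was given no name. Its ligands differed in direction, and 16.6% of all tested genes were higher and 7.87% lower. Ccl4 was higher, with 7933 UMIs (1379 CPM) in AptCD4-LNT and 1265 UMIs (906 CPM) in Untreated cells, a log2 ratio of 0.61 (0.52 to 0.69). Ccl6 was lower at 449 CPM in AptCD4-LNT and 1428 CPM in Untreated cells (-1.67), Ccl5 at 37.7 and 186 CPM (-2.30), and Ccl9 at 320 and 567 CPM (-0.83). Ccl3 at 305 and 236 CPM and Ccr1 at 217 and 271 CPM were not called. The median depth of this cluster was 5459 UMIs in AptCD4-LNT and 1838 UMIs in Untreated cells, and its neutrophil markers summed to 735 and 1390 CPM. Counted with the macrophage-like class, cluster 12 brought the class log2 ratio of Ccl9 to 0.27, that of Ccl4 to -0.03 and that of Ccl6 to -1.27.

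Clusters 19 and 20 had 29 and 31 AptCD4-LNT cells, too few for a call. In cluster 19, led by Mmp12, Ccl24 and Arg1, Ccl6 stood at 870 CPM in AptCD4-LNT and 5453 CPM in 953 Untreated cells, Ccl4 at 727 and 2037 CPM, Ccl3 at 590 and 1356 CPM, and Ccl9 at 431 and 947 CPM. In cluster 20, Ccl6 stood at 543 CPM in AptCD4-LNT and 1879 CPM in 1829 Untreated cells, Ccl4 at 506 and 1057 CPM, Ccl3 at 161 and 368 CPM, and Ccl9 at 194 and 223 CPM. Ccl6 and Ccl3 were thus past 1.5-fold lower in 3 of the 4 clusters 12, 16, 19 and 20 and higher in none, although 2 of these clusters are small in the AptCD4-LNT library. Of clusters 12 and 16, which had enough cells for a call, Ccl6 was lower only in cluster 12 and Ccl3 only in cluster 16. Ccr1 passed 1.5-fold in 0 of the 4.

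Ccl3 and Ccl4, near neighbours that are often made together, were not made in a fixed proportion. Cluster 11 was the only cluster of 10, 11, 12, 16, 19 and 20 with fewer Ccl4 than Ccl3 UMIs, at 0.473 Ccl4 per Ccl3 UMI (0.429 to 0.521) in AptCD4-LNT and 0.851 (0.828 to 0.874) in Untreated cells. The other neutrophil-like cluster, cluster 10, had 1.83 Ccl4 per Ccl3 UMI in AptCD4-LNT and 2.14 in Untreated cells. Cluster 16 had 3.22 and 3.18, and cluster 12 had 4.52 and 3.83. Lymphoid cells lay further toward Ccl4, with 7.38 Ccl4 per Ccl3 UMI in T-like cells of both libraries together (5.60 to 9.88), where AptCD4-LNT cells had no Ccl3 UMI. NK-like cells had 21.0 (6.865 to 104.6), resting on 3 Ccl3 UMIs. Unnamed cluster 17, led by Ccr7, Timd4 and Igkc, also lay there, at 20.3 in AptCD4-LNT and 8.70 in Untreated cells. Cluster 19, at 1.23 and 1.502 in AptCD4-LNT and Untreated cells, lay below cluster 10, so the macrophage-like clusters did not all lie above the neutrophil-like ones. Within cluster 16 the proportion was nearly the same in both libraries although both genes were lower in AptCD4-LNT.

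**Figure D4:**
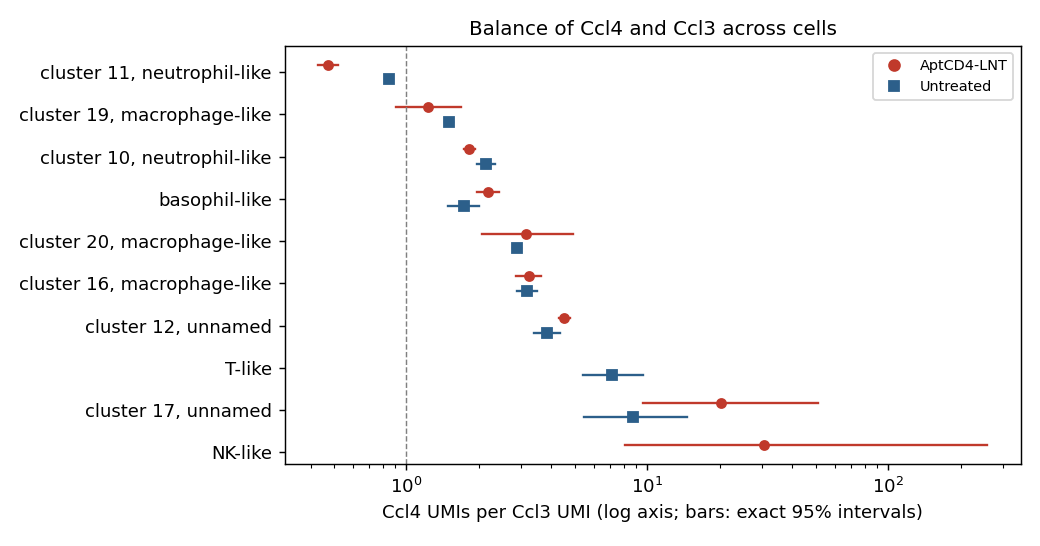
Ccl4 UMIs per Ccl3 UMI on a log axis by cluster or class, for each library, with exact 95% counting intervals. Cluster 11 lay below 1 in both libraries, and the macrophage-like clusters and cluster 12 lay above it. The AptCD4-LNT interval of macrophage-like cluster 19 (0.903 to 1.68) spans 1.

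Ccl9 relative to Ccl6 was higher in the AptCD4-LNT library in every one of clusters 10, 11, 12, 16, 19 and 20. Per 100 Ccl6 UMIs there were 16.1 Ccl9 UMIs in AptCD4-LNT and 1.41 in Untreated cluster 11 cells, and 7.86 and 2.68 in cluster 10. Cluster 16 had 40.0 in AptCD4-LNT and 26.2 in Untreated cells, cluster 12 had 71.1 and 39.7, cluster 19 had 49.6 and 17.4, and cluster 20 had 35.6 and 11.9. The proportion was also higher in AptCD4-LNT where both genes were scarce, at 48.1 against 16.1 in epithelial-like cells and 78.9 against 26.9 in fibroblast-like cells, and lower in cluster 17, at 37.5 against 61.8. The neutrophil values rest on sparse Ccl9 UMIs, with 13 in AptCD4-LNT and 88 in Untreated cluster 11 cells, and the part of free RNA in the shift was not tested. Macrophage-like clusters had more Ccl9 per Ccl6 than neutrophil-like clusters in each library, and the promoters printed above belong to this pair. Osteoclast-like cells, 18 in the AptCD4-LNT and 27 in the Untreated library, had more Ccl9 than Ccl6, with 112 Ccl9 and 6 Ccl6 UMIs in AptCD4-LNT cells and 36 Ccl9 and 3 Ccl6 UMIs in Untreated cells. Their Ccr1 level was 357 CPM in AptCD4-LNT and 186 CPM in Untreated cells.

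The highest level of 4 ligands was in a handful of basophil-like cells, 8 in each library. Ccl4 stood at 59838 CPM in AptCD4-LNT and 51282 CPM in Untreated basophil-like cells, Ccl3 at 27376 and 29618 CPM, Ccl6 at 16834 and 15385 CPM, and Ccl9 at 3619 and 3140 CPM. These 4 genes together made up 10.8% of all UMIs of the AptCD4-LNT and 9.94% of those of the Untreated basophil-like cells. The share per cell ran from 1.17% over a median of 11.01% to 18.5% in AptCD4-LNT cells, and from 1.89% over 8.45% to 16.6% in Untreated cells, so the libraries overlapped throughout. Although their share of all cells was 0.0927% in AptCD4-LNT and 0.0435% in Untreated, they held 8.11% and 1.22% of all Ccl3 UMIs. Ccl4 was found in all 8 AptCD4-LNT cells, with 9 to 379 UMIs, and in 5 of the 8 Untreated cells, with up to 214 UMIs. Gata2, from the basophil marker set, was detected in 8 AptCD4-LNT and 5 Untreated cells and the basophil protease Mcpt8 in 3 and 4. The mast cell markers Tpsb2, Cma1, Mcpt4 and Kit were each detected in 1 AptCD4-LNT cell and 0 Untreated cells, and the mast cell marker Cpa3 in 1 and 2. The mast cell protease genes Mcpt1 and Mcpt2, outside the marker sets, were among the leading genes of these cells. The name basophil-like thus does not exclude mast cells. Of the 16 cells of both libraries, 8 had no Mcpt8 UMI and fewer than 2 UMIs of the mast cell proteases Cpa3, Cma1, Tpsb2 and Mcpt4. Ccl5 had 0 UMIs in both libraries, and Ccr1 had 6 UMIs in AptCD4-LNT and 0 in Untreated cells.

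**Figure D5:**
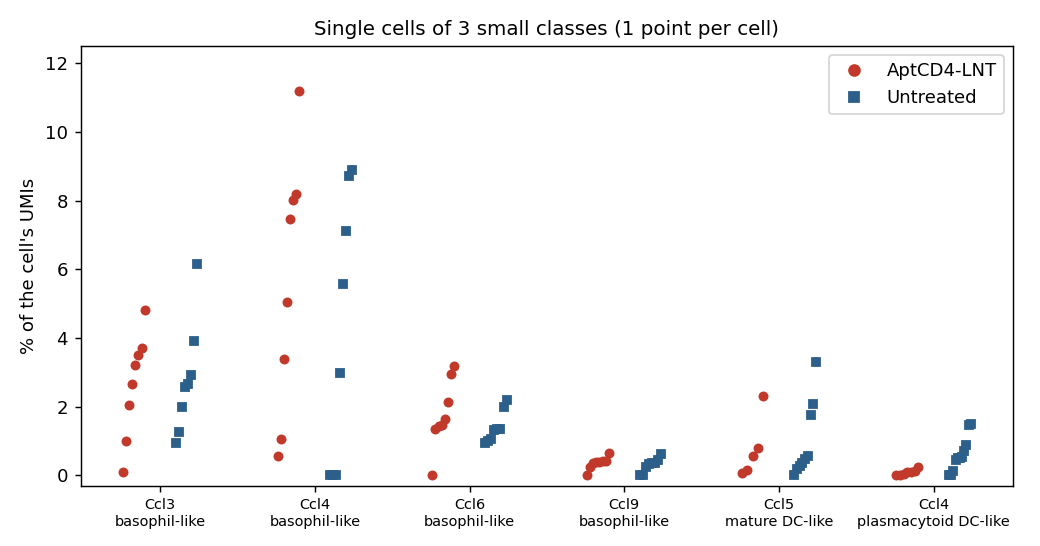
Percent of each cell's UMIs that belonged to a single named chemokine, a point per cell, for basophil-like cells (Ccl3, Ccl4, Ccl6 and Ccl9, each in its own column), mature dendritic cell-like cells (Ccl5) and plasmacytoid dendritic cell-like cells (Ccl4), with AptCD4-LNT left of Untreated. Ccl4 of the basophil-like cells ran from 0.563% to 11.2% in AptCD4-LNT and from 0% to 8.88% in Untreated cells.

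Ccl5 was carried by other cells than the rest of the ligands. In T-like cells, 69 in the AptCD4-LNT and 470 in the Untreated library, it stood at 1003 CPM (325 UMIs) for AptCD4-LNT and 1661 CPM (1887 UMIs) for Untreated, so the log2 ratio was -0.73 (-0.90 to -0.56). Among T-like cells, those in which it was detected were 36.2% for AptCD4-LNT and 49.4% for Untreated, against 4.63% and 5.05% of epithelial-like cells. A single cell decided part of the AptCD4-LNT level, since 74 UMIs (22.8%) lay in it, and without the top cell of each library the levels were 779 and 1626 CPM. The kinds of T cell also differed in weight, and with a common mix of the sub-clusters, weighted as above, the log2 ratio turned to 0.50. That average includes a sub-cluster at 30283 CPM in 2 AptCD4-LNT cells, where 1 cell held 74 of 93 UMIs, and 2695 CPM in 79 Untreated cells. Among sub-clusters, that led by Ly6c2 and Cxcr3 stood at 1715 CPM in 12 AptCD4-LNT and 8069 CPM in 73 Untreated cells, and that led by Tcf7 and S1pr1 at 2451 CPM in 11 and 7223 CPM in 59 cells. A Foxp3-led sub-cluster, of regulatory type by this gene, had 7 Ccl5 UMIs in 13 AptCD4-LNT and 45 in 26 Untreated cells, and a Gzmg-led sub-cluster had 0 in 7 and 15 in 22 cells. Cycling T-like cells stood at 999 CPM in 10 AptCD4-LNT and 190.5 CPM in 98 Untreated cells, but 1 AptCD4-LNT cell held 61 of the 86 UMIs and without it the level was 309.5 CPM.

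Outside T cells, Ccl5 reached 3197 CPM in 41 AptCD4-LNT and 1518 CPM in 12 Untreated NK-like cells, with a UMI in 30 and 5 of them. Mature dendritic cell-like cells held it at 7585 CPM in 5 AptCD4-LNT and 7649 CPM in 9 Untreated cells. In cluster 17, unnamed and led by Ccr7, Timd4 and Igkc, Ccl5 stood at 525 CPM in 66 AptCD4-LNT and 1774 CPM in 71 Untreated cells. An epithelial-like cluster led by the interferon-induced genes Ifit3, Ifit1 and Cxcl10 had 224 Ccl5 UMIs (369 CPM) in 31 AptCD4-LNT cells and 100 UMIs (52.1 CPM) in 264 Untreated cells. A single cell held 39.3% of the AptCD4-LNT UMIs of that cluster, and without the top cell of each library the levels were 234 and 34.5 CPM.

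The other members were scarce in T-like cells, where all 4 genes with enough UMIs to be tested (Ccl3, Ccl4, Ccl5 and Ccl6) were lower, against 9.01% of all tested genes lower and 15.6% higher. The UMI minimum is over both libraries together, and Ccl3, Ccl4 and Ccl6 met it through Untreated cells alone. Untreated had 470 T-like cells and AptCD4-LNT 69, so a sparse gene entered this count more readily if it was high in Untreated. The count of 4 lower genes is therefore partly set by this minimum. Ccl4 had 13 UMIs (40.1 CPM) in AptCD4-LNT and 415 UMIs (365 CPM) in Untreated T-like cells, which put the log2 ratio at -3.19 (-4.11 to -2.40). Ccl3 had 0 UMIs in AptCD4-LNT and 58 in Untreated T-like cells, and Ccl6 had 0 and 65 UMIs. With the AptCD4-LNT total set to 3 counts, Ccl3 was 5.51-fold and Ccl6 6.18-fold lower, without the counting error of the Untreated level. The counting intervals of the log2 ratios reached up to -2.12 for Ccl3 and -2.29 for Ccl6. Ccl9 had 0 and 6 UMIs, and Ccr1 had 2 and 10. The 8 macrophage markers summed to 108 CPM in AptCD4-LNT and 416 CPM in Untreated T-like cells, and the 8 neutrophil markers to 235 and 246 CPM, and their part in these differences was not tested. Plasmacytoid dendritic cell-like cells held Ccl4 with no Ccl3, at 854 CPM (28 UMIs) in 7 AptCD4-LNT cells and 6192 CPM (109 UMIs) in 11 Untreated cells.

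In tumour and stromal classes the levels were low and mostly lower in AptCD4-LNT. Of the 6 genes, 4 were lower in AptCD4-LNT epithelial-like cells, where 5.69% of all tested genes were lower and 9.12% higher, with Ccl3 at 3.85 CPM in AptCD4-LNT and 16.03 CPM in Untreated cells, Ccl4 at 7.97 and 18.5 CPM, Ccl6 at 7.17 and 15.8 CPM, and Ccr1 at 2.09 and 3.28 CPM. Per epithelial-like cell, which was deeper in AptCD4-LNT, the UMIs were nearer for Ccl4, at 0.155 in AptCD4-LNT and 0.179 in Untreated cells, and for Ccl6, at 0.139 and 0.153. For Ccr1 they were higher in AptCD4-LNT, at 0.0406 and 0.0318. Ccl3 stayed lower per cell, at 0.0749 in AptCD4-LNT and 0.155 in Untreated cells. The macrophage markers in these cells summed to 62.6 CPM in AptCD4-LNT and 90.7 CPM in Untreated, and their part in the differences was not tested. All 6 were lower in AptCD4-LNT fibroblast-like cells, where 12.3% of all tested genes were lower and 9.70% higher, with Ccl6 at 12.9 CPM in AptCD4-LNT and 79.0 CPM in Untreated cells and Ccl3 at 9.20 and 29.9 CPM. These cells were also deeper in AptCD4-LNT, with medians of 12838 and 6808 UMIs. Per cell, Ccr1 was nearly equal, at 0.0753 and 0.0762 UMIs, while the 5 ligands stayed lower. In fibroblast-like cluster 4 Ccr1 was not lower, at 6.36 CPM in AptCD4-LNT and 5.74 CPM in Untreated cells. In the same fibroblast-like cells the macrophage markers summed to 157 CPM in AptCD4-LNT and 369 CPM in Untreated cells and the neutrophil markers to 492 and 838 CPM, and their part in the result was not tested. Pericyte-like cells had 2 genes higher and 2 lower of 4 tested, where 17.1% of all genes were higher and 12.1% lower, but all 137 AptCD4-LNT Ccl5 UMIs and 45 of 50 Ccl3 UMIs lay in 1 cell. In endothelial-like cells 0 of the 6 genes had enough UMIs to be tested, where 7.65% of all tested genes were higher and 9.89% lower.

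Ccr1, like Ccl3, was highest in a neutrophil-like cluster in both libraries, among clusters with at least 50 cells. In the AptCD4-LNT library cluster 10 at 886 CPM (852 to 922) and cluster 11 at 848 CPM (769 to 934) overlapped in their intervals and were followed by cluster 16 at 285 CPM. In the Untreated library cluster 11 at 663 CPM (627 to 700) and cluster 10 at 577 CPM (531 to 625) were followed by cluster 12 at 271 CPM and cluster 19 at 250 CPM, whose intervals overlapped. Ccrl2, a non-signalling chemokine receptor, stood at 1725 CPM in AptCD4-LNT and 1351 CPM in Untreated neutrophil-like cells. Ackr2 and Ccr1l1 had 0 UMIs in neutrophil-like cells of both libraries.

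Other inflammatory genes of neutrophils did not move as a group with the ligands. Of 12 inflammatory genes known to be induced through NF-kB, 7 were higher and 4 lower in AptCD4-LNT neutrophil-like cells, with a median log2 ratio of 0.62 against 0.19 over all tested genes, of which 25.1% were higher and 8.56% lower. Il1a, an interleukin-1 cytokine, was among the lower genes at 60.01 CPM in AptCD4-LNT and 334 CPM in Untreated cells, as were the neutrophil attractant Cxcl3 at 608 and 3186 CPM and the checkpoint ligand Cd274 at 336 and 1007 CPM. Among the higher genes were Il1b at 17876 CPM in AptCD4-LNT and 11787 CPM in Untreated cells, the prostaglandin synthase gene Ptgs2 at 1148 and 526 CPM, and Tnf at 77.0 and 45.1 CPM. Within clusters these 3 differed less or otherwise. Il1b stood at 19949 and 15665 CPM in cluster 10, short of 1.5-fold, and was lower in cluster 11, at 6346 and 9760 CPM. Tnf was short of 1.5-fold in both clusters. Ptgs2 passed it in cluster 10, at 1217 and 518 CPM, but not in cluster 11, at 761 and 531 CPM. Of 12 immediate early and dissociation genes, 7 were higher and 3 lower in the same cells (median log2 ratio 0.69), against that same background. By cluster, the NF-kB list had 6 higher and 3 lower in cluster 10 and 2 higher and 4 lower in cluster 11, and the immediate early list had 5 higher and 2 lower in cluster 10 and 6 higher and 0 lower in cluster 11, where over all tested genes 25% were higher and 6.82% lower in cluster 10, and 27.8% higher and 13.2% lower in cluster 11.

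Among other CC ligands, cluster 16 held most, with Ccl8 at 4385 CPM in AptCD4-LNT and 6515 CPM in Untreated cells, Ccl7 at 2504 and 2584 CPM and Ccl2 at 1476 and 2166 CPM. Of the 5 of these ligands tested in cluster 16, 0 were higher and 1 lower (median log2 ratio -0.55), against a median of 0.17 over all tested genes, of which 23.3% were higher and 9.44% lower. In T-like cells 15.6% of all tested genes were higher and 9.01% lower. Of 8 killer effector genes there, 1 was higher and 3 lower, with Gzmk at 108 CPM in AptCD4-LNT and 253.5 CPM in Untreated cells, Nkg7 at 839.5 and 1331 CPM, and Gzmb at 4099 and 4560 CPM, which did not pass 1.5-fold. Of the regulators of Ccl5 tested in T-like cells, 2 of 5 were higher and 0 lower.

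Across 40 cluster profiles, each from 1 library with at least 50 cells, and 7577 genes, the patterns most like the members were mostly those of myeloid genes. Ccl3 was nearest to Lilr4b and Ccl4 (both r = 0.93) and Ccl4 to Lilr4b (0.97) and Cd53 (0.96). Ccl6 was nearest to Trf and Fcgr3 (both 0.94), Ccl9 to C3ar1 (0.94), and Ccr1 to Ccrl2 (0.98) and Fcer1g. Ccl5 stood apart, with P2ry10 at 0.81 and correlations of 0.14 to 0.39 with the other members. These correlations are descriptions, since profiles of 1 library share its depth and its free RNA and profiles of 1 cluster share a cell type.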

How the data were processed

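Values in the deposited matrices are raw counts of UMIs for each gene in each barcode. Cell Ranger 7.2.0 is named per the file headers, and GRCm39 is named per the submitters' processing notes. The deposited barcode and gene lists hold names. The members, marker sets and gene lists were chosen with earlier results of these data known.

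Barcodes under 200 genes or above 20% mitochondrial UMIs were dropped (78 in AptCD4-LNT and 39 in Untreated). Scrublet at its automatic threshold then removed 226 AptCD4-LNT cells (2.55%) and 1590 Untreated cells (7.95%), against expected rates of 7.145% and 16.0%. The 2000 most variable genes without the members (1995 genes), 30 principal components and 15 neighbours gave 23 Leiden clusters at resolution 1, with no batch integration, and cluster 6, of T and NK cells, was divided into 16 sub-clusters at resolution 1.5. A cluster took the class of its highest marker score unless genes of another class led it. Clustering ran in scanpy 1.11.5 with scikit-learn 1.9.0 and igraph 0.11.9, statistics in scipy 1.17.1 with pandas 2.3.3 and numpy 2.4.6, and plots in matplotlib 3.10.9, all under Python 3.11.15.

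UMIs were summed per class and library. Classes and clusters with at least 50 cells in each library, and genes with at least 30 UMIs over both, were compared. Intervals are exact 95% Poisson, binomial or conditional binomial intervals, and the interval code was tested on simulated data. Beside the members, genes were named only from fixed lists, as the 5 genes most like each member, or as markers and leading genes of clusters. Over genes with at least 100 UMIs the median log2 ratio was 0.20 in neutrophil-like cells, 0.14 in macrophage-like cells, 0.21 in clusters 10 and 11, 0.16 in cluster 16 and 0.08 in cluster 12, and the ratios printed are not corrected for it. For shares at equal depth each cell was thinned to 500 UMIs, and no kept cell was shallower. In all, 8 planned and 2 added alternatives were tried. Single values of some genes of the lists are not reported here.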

Additional observations from a re-analysis of the deposited data

How the results depend on the processing

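Depth and the makeup of the classes set the limits here, since each group is 1 library. AptCD4-LNT neutrophil-like, T-like, epithelial-like and fibroblast-like cells were deeper than Untreated ones. In neutrophil-like cells the log2 ratios as reported were -2.09 for Ccl3, -1.64 for Ccl4, -3.23 for Ccl6 and 0.48 for Ccr1. With cells of at least 1000 UMIs only they were -1.12, -0.71, -2.37 and 1.45, and with each cell weighted equally -2.03 for Ccl3 and -1.56 for Ccl4. Centred on the median of genes with at least 100 UMIs they were -2.29, -1.84, -3.43 and 0.28. A common mix of clusters, an alternative chosen after seeing the data, gave -0.98, -1.30 and -3.10 for Ccl3, Ccl4 and Ccl6. In macrophage-like cells Ccl3 (-0.87 as reported) gave -0.72 with cells of at least 1000 UMIs and -1.08 with cells weighted equally. It gave -1.01 centred and -1.18 with a common mix of clusters. Ccl4 (-0.47) gave 0.0849 with doublets removed at the expected rate, 0.12 with at most 10% mitochondrial UMIs, 0.21 with at least 1000 UMIs, -0.0361 at resolution 0.5 and 0.0577 with the members among the variable genes. It further gave -0.61 centred, -0.0253 with cluster 12 added (also chosen after seeing the data) and -1.18 with a common mix of clusters. Ccl9 (1.81) gave in the same order 0.10, 0.0337, -0.0829 with its direction reversed, 0.23, 0.0479, 1.68 centred, 0.27 and 0.16, and 1.69 with cells weighted equally. The reclustered settings count 796 to 1515 AptCD4-LNT cells as macrophage-like against 498, so the class is not the same set of cells. Ccl5 in T-like cells (-0.73) gave -0.19 with at least 1000 UMIs and, reversed, 0.50 with a common mix of sub-clusters. Also reversed were Ccl5 (1.24) and Ccl9 (0.34) in neutrophil-like cells of at least 1000 UMIs and Ccl5 in macrophage-like cells with a common mix of clusters (0.43). Macrophage-like Ccl6 (0.48, not called) gave -1.33, -1.38, -1.53, -1.28 and -1.41, each past 1.5-fold lower, with the expected doublet rate, 10% mitochondrial UMIs, at least 1000 UMIs, resolution 0.5 and the members among the variable genes. It gave -1.27 with cluster 12 and -0.74 with a common mix of clusters. Macrophage-like Ccr1 (0.22, not called) gave -0.17 to -0.0466 in the same 5 settings and -0.0427 with cluster 12. Leaving out cells with keratin UMIs kept the direction of all 14 results. The cause of these moves was not tested beyond the change in cells. No paired analysis was possible because each group has 1 library.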
